A study of Mus musculus with 2 samples.

Results

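The genes described here carry the Nodal signal from its making to its reading in the nucleus: the ligands Nodal and Gdf3, the co-receptors Tdgf1 (Cripto) and Cfc1 (Cryptic), the antagonists Lefty1, Lefty2 and Cer1, the convertases Furin and Pcsk6 (Pace4), and Foxh1. They were chosen by name. Every probe whose gene name in the scanner files is on this list was kept, which gave 13 probes for 10 genes, of 31736 gene names on the array. Tdgf1 has 3 probes, Gdf3 has 2, and each of the other 8 genes has 1.

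The RNA came from mouse EpiSC (epiblast stem cells), a pluripotent cell type that resembles postimplantation epiblast. The groups are clone 2 and clone 1, each at passage 9, wildtype, female and of C57BL/6 genetic background, with 1 array each. Each group is therefore 1 clone at 1 passage, and the labels used here do not mention feeder cells. Signals are the scanner software's processed spot intensities, scaled to the 75th percentile of all probes of the array and given as log2, so 0 is the 75th percentile signal. Differences are clone 2 minus clone 1 on this log2 scale, and with 1 array per clone they have no replicate check, no standard error and no p-value.

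Nodal is secreted as a precursor that convertases such as Furin and Pcsk6 cleave. The mature ligand binds activin receptors together with a co-receptor of the Cripto family, the receptors phosphorylate Smad2 and Smad3, and these enter the nucleus with Smad4, where Foxh1 is among the factors that bring them to DNA. Lefty proteins bind Nodal and its co-receptor, and their genes are targets of the pathway, so they form its negative feedback. EpiSC are known to depend on Activin or Nodal signalling to remain undifferentiated.

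The 75th percentile signal was 736 for clone 2 and 830 for clone 1, and the median negative control spot had 7.11 and 7.96. A probe counted as detected when the scanner software marked its spots as well above background. On these arrays, which share a slide and a scan, 57.5% of probes were detected in clone 2 and 57.4% in clone 1. All 7 EpiSC markers were detected in both clones, among them Pou5f1 (2.49 in clone 2 and 2.85 in clone 1), Nanog (4.26 and 4.41) and Sox2 (0.43 and 0.14). Of 7 markers of naive pluripotency, 3 were detected in both: Klf4 (-0.04 in clone 2 and -0.24 in clone 1), Esrrb (-0.54 and -0.42) and Tbx3 (-0.37 and -0.92). Zfp42, Nr0b1 and Dppa3 were among those detected in neither. Of 4 markers of the primitive streak, Eomes alone was detected in both, and T and Mixl1 in neither. All 8 fibroblast markers were detected in both, among them Col1a2 (4.99 and 4.86), Dcn (3.60 and 3.77) and Tagln (4.61 and 4.30), and their signals summed to 87.1 times the 75th percentile signal in clone 2 and 78.2 times in clone 1. The same sum over the 7 EpiSC markers was 141.4 times in clone 2 and 128.1 times in clone 1. The part of fibroblast RNA in the values below was not tested. On arrays of whole cultures, fewer cells of a type and less RNA per cell cannot be told apart.

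The letters of a probe decide what it can read. The probes of Tdgf1 and Gdf3 are shown because those of the same gene gave different results, those of Lefty1 and Lefty2 because these genes are close relatives, and those of Furin and Pcsk6 because they differed most between clones among the probes detected in both. The first 30 of 60 bases are given 5′ to 3′ as the files list them. Capitals mark bases within runs of 14 that occur, on either strand, in at least 10 of 32851 promoter windows of RefSeq (GRCm38.p6).
Tdgf1, probe A_55_P2183147: tgatgctcacagtgaatccctaatgttacc
Tdgf1, probe A_55_P2058540: gttattattaaatcccagtgtgcaactgga
Tdgf1, probe A_55_P1968028: ctacacAGAAACCCTGTCTCGgggagAAAA
Gdf3, probe A_66_P107818: ctatcaggatagtgataagaacgtcattct
Gdf3, probe A_55_P2158448: gccaccaccgtctggcttcctggggttttc
Lefty1: ctttcatgcaaatctgaagtgctcattata
Lefty2: aagggtgtacctgagtctttctggccattg
Furin: aatggacacgagataatgttagaggtttta
Pcsk6: ctgttgaatccacacttcaaataagaaatc
Among all 13 probes, A_55_P1968028 of Tdgf1 was the single probe with such runs. They cover 35 of its 60 bases, from base 7 to 21 and from base 27 to 46. A stretch of 14 bases in the first run occurs in up to 31 promoter windows, and its letters are those of the end of B1 elements, a repeat family spread through mouse genes. The second run, of which 4 bases are printed, holds 13 A and 7 G and no other base, and a stretch of 14 of its bases occurs in up to 47 windows. No stretch of 14 bases in the other 12 probes was found in more than 3 windows. The longest run of letters shared by the Lefty1 and Lefty2 probes is 5 bases.

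Of the 10 genes, 8 were detected in both clones, and of their 13 probes, 10 were. Over the whole array 54.5% of gene names and 54.7% of probes were detected in both. The other 2 genes, Cfc1 and Cer1, and their 2 probes were detected in neither clone, as were 40.1% of gene names and 39.9% of probes of the array, and 1 Gdf3 probe was detected in clone 1 alone. No detected member was 2-fold apart between clones, where 2.79% of all probes detected in both clones were (1.60% higher and 1.19% lower in clone 2). At 1.5-fold, 3 of the 10 detected probes were apart, beside 9.58% of all detected probes: 3 were higher in clone 2, beside 5.64%, and 0 were lower, beside 3.94%. The 3 probes belong to Pcsk6, Furin and Tdgf1. The median difference of the 10 probes was 0.10, beside 0.02 over all 21497 detected probes. The middle 95% of differences of all detected probes ran from -0.72 to 0.84, and the spot-to-spot SD of a difference, from probes printed 10 times on each array, was 0.11.

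**Figure D1:**
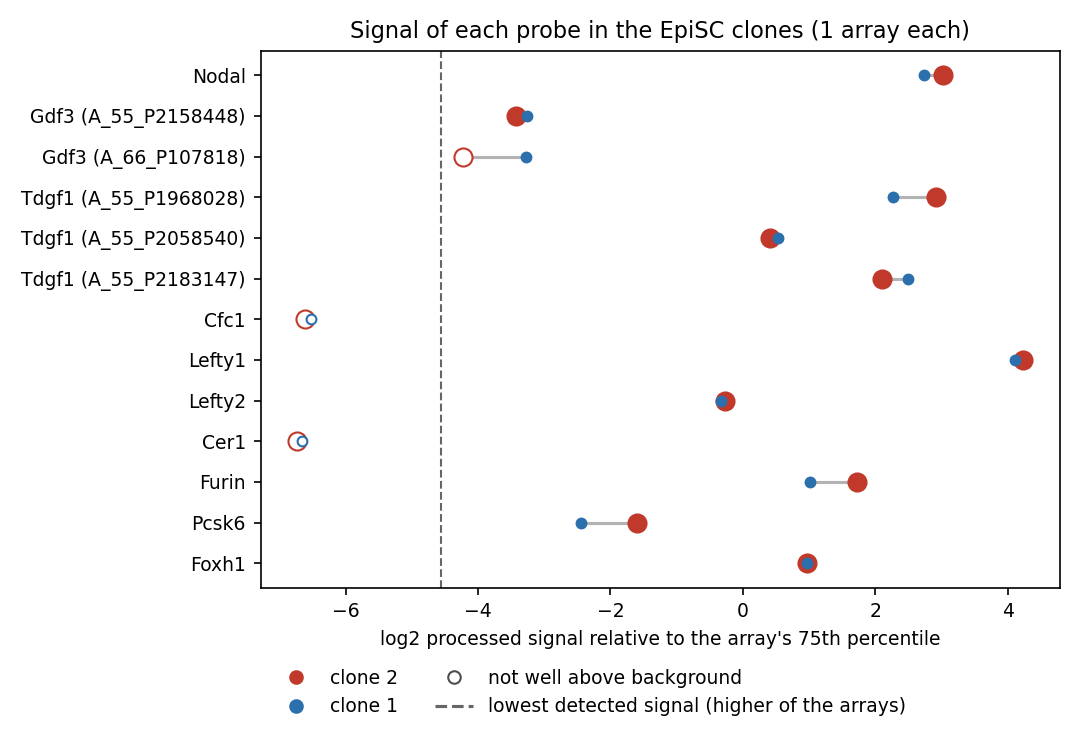
Log2 processed signal of each probe, relative to the 75th percentile of its array, with large red points for clone 2 and small blue points for clone 1 (1 array each); open points are not well above background, and the dashed line is the lowest detected signal. Cfc1 and Cer1 lie left of the line in both clones, and Pcsk6 shows the widest gap among the probes detected in both clones.

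Nodal, the ligand, was clearly detected. Its probe, at chr10:60887790-60887849 (mm9, plus strand), had a processed signal of 5978 in clone 2 and 5529 in clone 1, which is 840 and 694 times the median negative control spot. On the scaled log2 scale this is 3.02 in clone 2 and 2.74 in clone 1, a difference of 0.29, and 32.8% of detected probes were at least as far apart. With normexp background correction the difference was 0.05. This is below the median of all detected probes under that correction (0.12) and the spot-to-spot SD of 0.11. Here and below, normexp started from the mean spot signals and not from the detrended processed signals. The mean spot signals of Nodal were 6025 in clone 2 and 6003 in clone 1. The parts of the background correction and of the changed input in the shift were not tested. The remaining signals and scalings gave differences from 0.18 to 0.30. A Nodal signal higher in clone 2 by more than the median of all detected probes thus depends on the processing.

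Gdf3, a relative of Nodal that also acts through Cripto-type co-receptors, was dim. Its probe A_55_P2158448 (chr6:122555421-122555480, minus strand) read 68.4 for clone 2 and 86.9 for clone 1 in processed signal, against negative control medians of 7.11 and 7.96. Scaled, these are -3.43 and -3.26, a difference of -0.17, which was 0.39 with normexp background correction. No direction can thus be read for this probe.
The other probe, A_66_P107818, lies 919 bases away (chr6:122556340-122556399) and read 39.1 for clone 2 and 85.9 for clone 1. It was well above background in clone 1 alone. Its scaled signals were -4.23 in clone 2 and -3.27 in clone 1, or 1.95-fold lower in clone 2. This is the ratio of the measured signals and not a lower bound, and the clone 2 signal is not well above background. Both spots were positive and significant against background by the software's less strict flag, so the clones differ here in passing a threshold as well as in signal.

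Tdgf1, the EGF-CFC co-receptor through which Nodal reaches the activin receptors, was detected in both clones by all 3 of its probes. They lie within 437 bases on chromosome 9 (mm9, minus strand). The probe A_55_P2183147 (chr9:110843099-110843158) had a processed signal of 3145 in clone 2 and 4667 in clone 1. The middle probe A_55_P2058540 (chr9:110842866-110842925) had 977 in clone 2 and 1200 in clone 1. The probe with the repeated letters, A_55_P1968028 (chr9:110842722-110842781), had 5577 in clone 2 and 3985 in clone 1. Clone 2 was thus the dimmer array at the first and the middle probe and the brighter at the last.
After scaling, the differences were -0.39, -0.12 and 0.66 in the same order, so they do not share a direction. Their range of 1.05 log2 is wide: among 466 gene names with 3 probes detected in both clones the median range was 0.35, and 3.43% had a range at least as wide. Each probe kept its sign under each of the 7 ways of processing, from -0.58 to -0.38, from -0.20 to -0.11 and from 0.57 to 0.67.
The mean of the 3 differences was 0.05 with an SD between probes of 0.55, and without the probe with repeated letters it was -0.26. That probe is also the brightest of the 3 by mean signal, so a rule that takes the brightest probe of each gene reads Tdgf1 as 1.58-fold higher in clone 2, and the brightest of the remaining probes reads it as 1.31-fold higher in clone 1. The files pair A_55_P2183147 with 2 predicted transcripts and A_55_P2058540 with 1, besides the listed Tdgf1 transcript. Whether these predicted transcripts come from Tdgf1 itself was not checked, so the values of these probes may hold signal of other transcripts. Other probes of the array that share a repeated stretch of 14 bases with A_55_P1968028 number 19, of which 16 were detected in both clones. Their differences ran from -1.01 to 1.83 with a median of 0.09, and 10 of 16 were higher in clone 2, where 53.6% of all detected probes were. These 19 were chosen after the Tdgf1 values were seen. Of the spots next to A_55_P2183147, 2 were detected in both clones, with a median difference of 0.60 and 1 of them 2-fold apart. The part of repeated letters, predicted transcripts and array position in the disagreement was not tested.

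Cfc1, the other EGF-CFC co-receptor, which is known for its role in left-right patterning, was detected in neither clone. Its probe (chr1:34601097-34601156, plus strand) read 7.52 for clone 2 and 9.00 for clone 1, close to the median negative control spot at 1.06 and 1.13 times its signal. No fold is given for it.

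The feedback antagonists were present in both clones at closely similar signals. Lefty1 (chr1:182868137-182868196, plus strand) had a processed signal of 13863 in clone 2 and 14259 in clone 1. Scaled, these are 4.24 and 4.10, a difference of 0.13 that lay between -0.06 and 0.15 over the ways of processing. Lefty2, whose probe lies 39.2 kb away on the same strand (chr1:182828893-182828952), had 609 in clone 2 and 658 in clone 1. Its scaled signals were -0.27 and -0.34, a difference of 0.06 with a range of -0.01 to 0.08. The difference of Lefty1 was slightly above and that of Lefty2 below the spot-to-spot SD of 0.11, and 63.3% of detected probes were at least as far apart as Lefty1 and 82.3% as far as Lefty2.

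Cer1, a secreted protein that binds Nodal and, in frog, also BMP and WNT ligands, and is made by anterior visceral endoderm, was detected in neither clone. Its probe (chr4:82527655-82527714, minus strand) read 6.91 for clone 2 and 8.24 for clone 1, or 0.97 and 1.03 times the median negative control spot. The less strict flag marked it as positive and significant on both arrays although its signal was that of negative controls. Of 8 markers of extraembryonic endoderm, 1 was detected in both clones: Hhex, a transcription factor, at -1.60 in clone 2 and -2.06 in clone 1. Gata4 was detected in neither, Gata6 was detected in clone 2 alone (-4.17 in clone 2 and -5.09 in clone 1), and 6 of the 8 were detected in neither.

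Among the probes detected in both clones, those of the convertases differed most. Pcsk6 (chr7:73195141-73195200, plus strand) had a processed signal of 243 in clone 2 and 152 in clone 1. Scaled, these are -1.60 and -2.45, a difference of 0.85, or 1.81 times the signal of clone 1. Of all detected probes, 4.11% were at least as far apart, and the value lies just outside their middle 95%. Dim probes spread more. For probes with a mean signal below -2, where Pcsk6 just falls, the middle 95% ran from -0.93 to 0.92. The value lies inside that range. For mean signals from -2 to 0 it ran from -0.84 to 0.84. Among spots next to it, 4 were detected in both clones with a median difference of 0.24, and 1 of them was 2-fold apart.
Furin (chr7:87534082-87534141, minus strand), a widely expressed convertase of the secretory pathway, had 2424 in clone 2 and 1672 in clone 1. Scaled, these are 1.72 and 1.01, a difference of 0.71, or 1.64 times the signal of clone 1. Of all detected probes, 6.33% were at least as far apart. The 2 measured spots next to it had a median difference of -0.07. Both genes lie on chromosome 7, with 14.3 Mb between the probes. Across the ways of processing the difference stayed between 0.78 and 0.92 for Pcsk6 and between 0.64 and 0.72 for Furin. These are several times the spot-to-spot SD, which was 0.11 over all signals and 0.17 for signals below -2. That SD does not hold variation between hybridizations, and each difference rests on 1 probe and 1 array per clone. The fibroblast markers had a median difference of 0.14, with 6 of 8 higher in clone 2 and none as far as 1.5-fold.

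**Figure D2:**
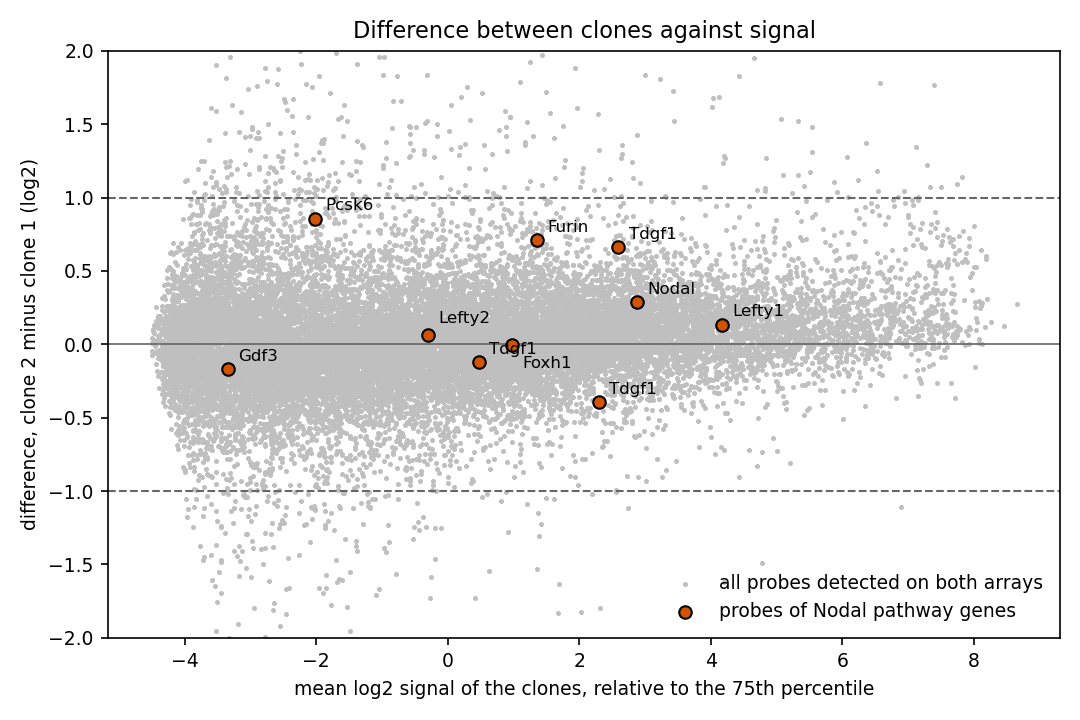
Difference between clones (clone 2 minus clone 1, log2) against mean log2 signal for the 21497 probes detected on both arrays (grey) and the 10 detected probes of the Nodal pathway genes (orange); dashed lines mark 2-fold, and 103 grey probes lie beyond the plotted range. Pcsk6, Furin and the Tdgf1 probe at 0.66 stand highest, and the other Tdgf1 probes lie below 0.

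Foxh1, the forkhead factor that brings Smad2 and Smad3 to their targets, was detected in both clones at nearly equal signals. Its probe (chr15:76498767-76498826, minus strand) had 1440 in clone 2 and 1630 in clone 1. After scaling both were 0.97, and 98.9% of detected probes were at least as far apart.

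**Figure D3:**
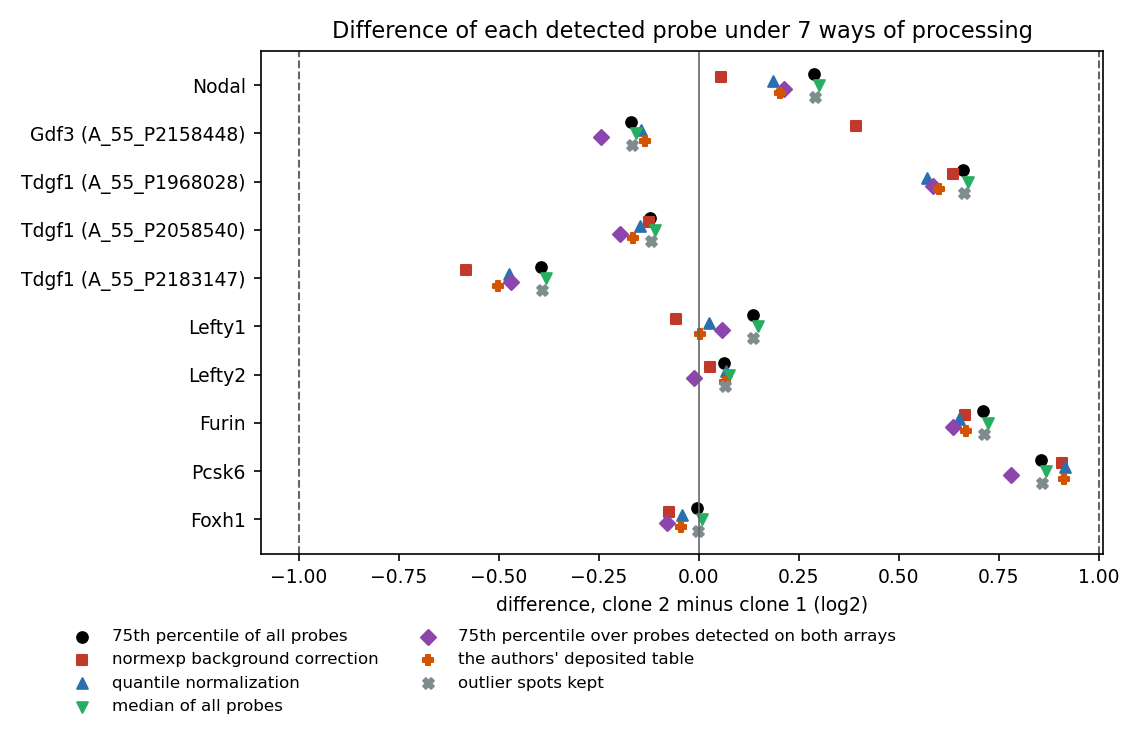
Difference between clones (clone 2 minus clone 1, log2) of each of the 10 detected probes under 7 ways of processing (marker shapes); dashed lines mark 2-fold. Pcsk6, Furin, Nodal and the 3 Tdgf1 probes keep their side of 0 under each, with Nodal close to 0 under normexp. Gdf3 and Lefty1 cross 0 with normexp background correction, and Lefty2 and Foxh1 lie close to 0 on either side.

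The rest of the pathway was read from 38 further genes in 7 lists. Of these, 30 were detected in both clones (78.9%, beside 54.5% of all gene names), and none of the 30 was 2-fold apart, beside 2.87% of all genes detected in both by their brightest probe (1.63% higher and 1.24% lower in clone 2). At 1.5-fold, 1 was apart, beside 9.80% of all genes, and it was higher in clone 2, as 5.95% of all genes were, with 3.85% lower. By any amount, 20 of 30 were higher in clone 2, beside 55.7% of all genes. Their median difference was 0.07, beside 0.04 over all genes.

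The receptors Acvr1b (1.09 in clone 2 and 0.85 in clone 1), Acvr2a (-3.22 and -3.04) and Acvr2b (4.73 and 4.60) were detected in both clones. Acvr1c (Alk7), a further type I receptor for Nodal, was detected in neither. All 3 Smads were detected: Smad2 had -0.63 in clone 2 and -0.67 in clone 1, Smad3 had 2.80 and 2.37, and Smad4, their shared partner, had 3.39 and 2.97. The brightest probes of Smad3 and Smad4 each differed by 0.43 and their second probes by -0.13 and -0.03.

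All 8 intracellular inhibitors were detected in both clones, with differences from -0.16 to 0.37. Smad7, an inhibitory Smad, had 1.10 in clone 2 and 1.16 in clone 1. Ski had -2.59 and -2.43, and the related corepressor Skil had 2.15 and 2.14, with -0.58 as the difference of its second probe. Of other ligands, 4 of 5 were detected in both: the activin subunits Inhba (1.10 in clone 2 and 1.15 in clone 1) and Inhbb (1.95 and 1.65), Gdf1 (0.06 and -0.27), a partner of Nodal, and Tgfb1. Gdf11 was detected in neither.

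Among other extracellular regulators, Fst (follistatin), which binds activins, was 1.54-fold higher in clone 2 (-1.16 in clone 2 and -1.78 in clone 1) and was the further gene past 1.5-fold. Dand5, a Cerberus relative that antagonises Nodal in left-right patterning, had -2.79 in clone 2 and -2.81 in clone 1. Bambi, a pseudoreceptor, was detected in neither.

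Most of the other convertases measured did not share the direction of Pcsk6 and Furin. Of 6, 4 were detected in both clones, 3 of them lower in clone 2 and 1 higher, and their median difference was -0.17. Pcsk2 had -1.19 in clone 2 and -0.78 in clone 1, Pcsk4 had -2.37 and -2.24, and Pcsk1 was detected in neither. Mbtps1 (site-1 protease), the gene higher in clone 2, had 4.55 and 4.22. Pcsk5, which can also cleave precursors of this ligand family, was well above background in clone 2 alone (-4.12 in clone 2 and -4.73 in clone 1).

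Of 7 target genes, 4 were detected in both clones, 2 of them higher in clone 2. Pmepa1, a feedback inhibitor of Smad signalling, had 1.15 in clone 2 and 0.72 in clone 1. The difference at its dimmer probe was 0.34. Eomes, a T-box factor of the primitive streak, had -2.39 and -2.37. The mesendoderm factors Mixl1, Gsc and Foxa2 were detected in neither clone.

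**Figure D4:**
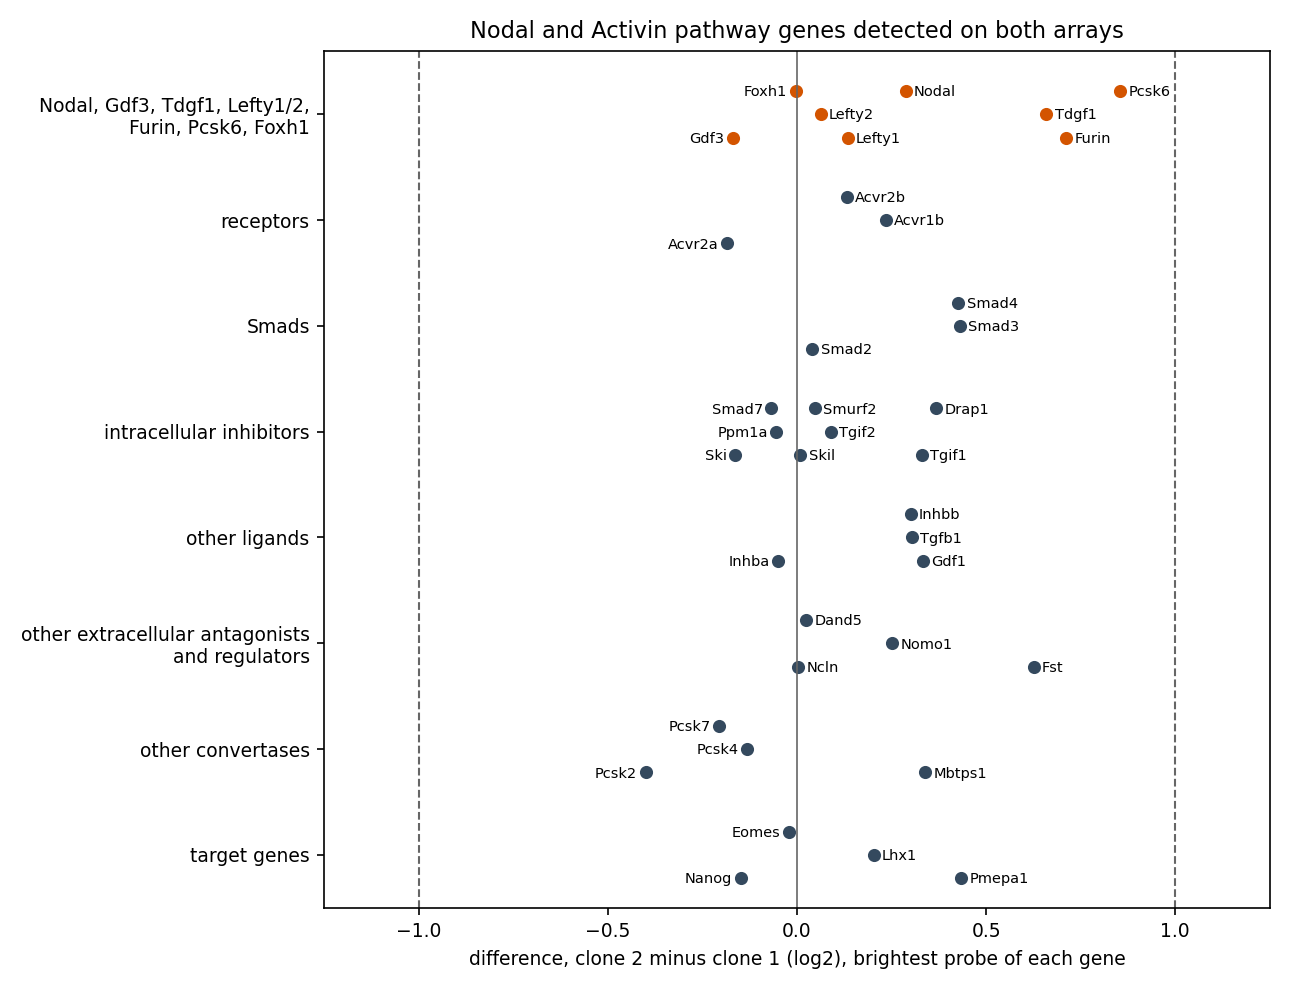
Difference between clones (clone 2 minus clone 1, log2) by the brightest probe of each gene detected on both arrays, for the Nodal pathway genes (top row, orange) and 7 lists of further pathway genes (dark); heights within a row only separate the names, and dashed lines mark 2-fold. No gene reaches 2-fold, Pcsk6 and Furin lie farthest to the right with Tdgf1 and Fst, and Pcsk2 lies farthest to the left.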

How the data were processed

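RNA of 2 EpiSC clones was measured with 1 Cy3-labelled array each (Agilent design 026655, Feature Extraction 11.0.1.1, protocol GE1_1100_Jul11, probe positions on mm9), per the file headers. The processed signal intensity had been spatially and multiplicatively detrended within each array, with separate background correction off, before the files were deposited, per the file headers, and was not scaled between arrays. The software's p-values for signal over background were deposited too and were not used. The authors' deposited table holds normalized intensity values, and how they were normalized is not stated in the labels or headers. Its columns, matched to the clones by their titles, have medians of 65.9 for clone 2 and 65.8 for clone 1. Their correlations with the scanner values of the same clone were 1.00 and 0.999, which alone do not show which column is which clone. The differences between clones correlated at 0.993 with those of quantile normalization.

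From these, outlier spots were left out (246 in clone 2 and 277 in clone 1), log2 signals were averaged per probe over 39272 probes, and the 75th percentile was subtracted. A probe is detected when at least 50% of its spots are well above background, and a gene when any probe is. The value of a gene with several probes is that of its brightest. The fold of a probe detected on 1 array uses the higher of its own dim signal and the lowest detected signal of that array. The lowest detected signals are -4.57 in clone 2 and -4.56 in clone 1. Where its own signal is the higher, the fold is the measured ratio and not a bound. Gene names are those of the files, and all 10 are current RefSeq symbols. Saturated or outlier spots among the members numbered 0. Analyses used Python 3.11.15 and limma 3.58.1 for normexp, and the 2-fold rule was tested on simulated data. The simulation added spot noise, an array scale and changes larger than 2-fold. It does not show how the rule performs between real cultures. Normexp took the mean spot signal and the background median in place of the processed signal, so it also left out the detrending. The members and gene lists were chosen with earlier results of these data known. Named genes are all members, the first 3 genes of each list and, from the pathway lists, genes detected in neither clone or 2-fold apart. Acvr2b, Tgfb1, Mbtps1, Pcsk5, Klf4, Esrrb and Tbx3 were named after their values were seen. The number of arrays limits the precision. Exon and UTR positions were not analysed here, and some genes of the pathway lists are not reported here.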

Additional observations from a re-analysis of the deposited data

How the results depend on the processing

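With 1 array per clone, no paired analysis was possible and no array could be left out. Genes were read here by their brightest probe, where it was detected in both clones. No member and no further pathway gene so read was 2-fold apart under any of the 6 other signals and scalings or 2 other detection rules. By the mean of all probes none was either. The difference of the dimmer Gdf3 probe A_66_P107818, -0.96 at the main scaling, was not recomputed for these counts. Members detected in both clones numbered 9 genes by the positive and significant flag and 8 by a limit of 3 SD above the mean of negative controls. Of 57 recomputed differences of member genes, 49 moved by less than the spot-to-spot SD of 0.11. Scaling to the median, scaling over detected probes and keeping outlier spots each shifted every member by the same amount, below that SD. The mean of probes cannot change a gene with 1 probe. Part of the 49 was thus fixed in advance, and the count does not measure robustness. The 8 that moved further were Nodal (0.05), Gdf3 (0.39) and Lefty1 (-0.06) with normexp, Lefty1 with quantile normalization (0.03) and the authors' deposited table (0.00), Gdf3 (-0.57, with 1 probe below detection in clone 2) and Tdgf1 (0.05) with the mean of probes, and Tdgf1 (-0.39) without its probe of repeated letters, an alternative chosen after seeing the data.

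Over all probes, 344 were 2-fold higher and 255 lower in clone 2, and with the percentile taken over detected probes 267 and 306. With normexp 230 were higher and 102 lower. The positive and significant flag gave 931 and 762, and the negative control limit 785 and 607. Extraembryonic endoderm markers detected in both clones numbered 3 by either rule, and primitive streak markers 3 and 2, against 1 and 1. These rules admit dimmer probes, and signal over background limits what can be read of Gdf3, Cfc1 and Cer1.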
